A study of Oreochromis niloticus with 18 samples.

Results

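Of the 26763 transcripts quantified in tilapia (Oreochromis niloticus) cerebellum, thalamus-pituitary and liver, the 200 described here were abundant in liver and near absent from both brain regions. A transcript was a candidate when its mean over the 6 liver libraries was at least 100 times its mean over the 12 brain libraries, both in CPM (the effective count scaled to a fixed library total) and with 0.1 CPM added to each. There were 406 such transcripts, and the 200 with the highest mean liver CPM were taken after 3 transcripts (CYP1A2, SOAT2 and SULT2B1) had been left out, of which 2 passed the ratio. The transcripts were thus chosen by their measured levels over all livers and brains, so their liver enrichment is a description and carries no test. Their hormone response within liver was not part of the choice, except that all 6 livers entered the mean. CPM is not corrected for transcript length, so an order of CPM between transcripts is an order of read share.

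The fish were juveniles of 4 months, described in the study's methods as sexually undifferentiated. Exposure was by immersion, for 12 h, in 25 nM of either T2 or T3, and control fish received no hormone. T2 is a diiodothyronine and T3 a triiodothyronine, which carries an additional iodine on its outer ring. Each group had 2 libraries per tissue. A brain library came from a pool of 4 fish, the number of fish behind a liver library is not given in the sources used here, and the labels give no genetic alteration for any group.

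The liver makes most proteins of blood plasma, among them fibrinogen and the clotting factors, the complement proteins, and carriers and protease inhibitors such as hemopexin and fetuin. It also carries out the breakdown of amino acids, the release of glucose and the making of bile acids. In many teleosts exocrine pancreas tissue is spread through the liver (a hepatopancreas), so that digestive enzyme transcripts can come with a liver sample. Thyroid hormones act through nuclear receptors that raise or lower the transcription of target genes, and the liver is a classical target tissue.

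A symbol could be paired with 63 of the 200 transcripts and 137 had none. The pairs came from the portion held here of the study's own list of transcripts called changed, which covers mostly transcripts lowered by both hormones in liver. Having a symbol was therefore tied to a fall in these same libraries. The counts of members called within each function list below describe the members, are not independent evidence of a direction, and are not a share of all genes of that function. The tables used here give no sequence or genome position for these identifiers.

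Mean liver levels ran from 218 to 26127 CPM, with a median of 909 CPM. The median ratio to brain was 1164 and the highest 14642. FETUB (fetuin B, a secreted protease inhibitor; ENSONIT00000013832) had the highest level, and ENSONIT00000009727 and ENSONIT00000001503 followed. The last transcript taken was an astacin-like protease, ASTL (ENSONIT00000004942), at 218 CPM, and the first one left out was ENSONIT00000012224 at 214 CPM. The lowest ratio among the 200 was 109 (ENSONIT00000021507), and RBP2, a cellular retinol-binding protein, was left out with a ratio of 98.8.

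The liver libraries held 2090615 and 6403790 effective counts in the controls, 4508568 and 5022547 after T2 and 6585242 and 6129549 after T3, so control 1 was the shallowest. Control 1 also stood apart in content. The transcripts of 12 digestive enzymes among the members took 9.04% of control 1 and 3.45% of control 2, against 2.44% and 2.53% of the T2 livers and 3.41% and 3.08% of the T3 livers. In 17 of the 200 transcripts control 1 was over 2-fold above every other liver, and 9 of these were digestive enzymes. The controls were over 2-fold apart for 62 members, of which 25 were higher in control 1 and 37 in control 2. The median member differed by 0.55 on the log2 scale between both controls, against 0.22 between the T2 livers and 0.23 between the T3 livers. The 14 hepatocyte marker transcripts, 11 of them members, summed to 55964 and 61441 CPM in the controls. Their sum was 29994 and 31853 CPM after T2 and 37994 and 41867 CPM after T3. In the brain libraries it was between 15.7 and 51.6 CPM. The 11 members were chosen for liver enrichment, so this contrast with brain is no check of the tissue. Hemoglobin and ALAS2 transcripts, as markers of blood, summed to 5089 and 7952 CPM in the controls, 4042 and 3961 CPM after T2 and 2978 and 4135 CPM after T3, and none of them was a member. All 5 of these transcripts, with HBZ near 0, were lower in the 4 hormone livers than in both controls, and their part in the falls described here was not tested.

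The 200 transcripts took a smaller share of the liver libraries after either hormone. They made up 46.2% and 44.6% of the control libraries, 34.1% and 35.2% of the T2 libraries and 36.3% and 35.9% of the T3 libraries. The groups did not overlap for either hormone. The mean share was 10.8 percentage points lower with T2 and 9.29 points lower with T3. An exact permutation test of 2 libraries against 2 cannot give a two-sided p below 0.333, so that test could make no call for the share.

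**Figure D1:**
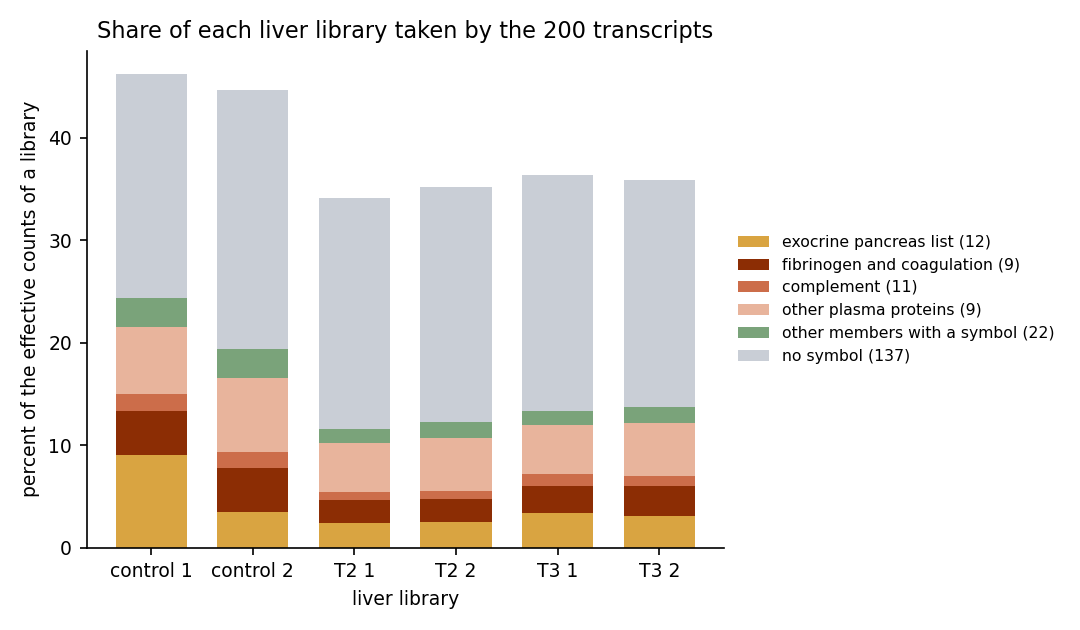
Stacked bars give the percent of the effective counts of each liver library (vertical axis) taken by the 200 transcripts, split by function list, for the 2 libraries each of control, T2 and T3 (horizontal axis). The whole bar falls from 46.2% and 44.6% in the controls to between 34.1% and 36.3% with hormone, while the grey segment of transcripts without a symbol stays between 21.8% and 25.3%.

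Most of the drop lay in the transcripts with a symbol, which came mostly from a list of lowered transcripts. These 63 averaged 21.9% of the control libraries, 12.0% with T2 and 13.5% with T3. The 137 without a symbol averaged 23.5%, 22.7% and 22.6%, and their hormone livers all lay between the controls (21.8% and 25.3%). From control 2 alone, the drop with T2 and T3 was 2.58 and 2.68 points for these 137. For the 63 with a symbol it was 7.41 and 5.84 points. Digestive enzymes accounted for 3.76 points of the T2 drop and 3.00 points of the T3 drop, and most of that came from control 1. Measured from control 2 alone, they accounted for 0.968 and 0.205 points, and the drop of all 200 was 9.99 and 8.52 points. Fibrinogen and coagulation transcripts went from 4.31% to 2.22% with T2 and 2.83% with T3. Complement went from 1.61% to 0.793% and 1.04%, and other plasma proteins from 6.83% to 4.96% and 4.95%.

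For single transcripts, libraries were scaled by TMM (trimmed mean of M values), which sets the middle of the distribution of log2 fold changes near 0, and the quasi-likelihood test of edgeR was applied. Benjamini-Hochberg adjustment ran over all transcripts tested, and an adjusted p under 0.05 was called. On this scale a transcript with an unchanged share has a negative fold where the typical transcript gained share. With the library total as the only scaling, the log2 fold change of the median transcript moved from 0.01 to 0.61 for T2 and from -0.02 to 0.54 for T3. Folds below are on the TMM scale unless stated, while CPM values are plain shares.

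With T2, 76 of 199 members tested were called, of which 73 fell and 3 rose. Over all transcripts tested 21% were called. The background was 8.85% of all 10905 transcripts called lower and 12.2% called higher, against 36.7% and 1.51% of the members. The median log2 fold change of the members was -1.08, with quartiles of -1.63 and -0.51, against 0.01 over all transcripts tested. After TMM scaling, both T2 libraries lay below both controls for 151 members and above both for 11, together 81.4% against a background of 67% (32% below and 35% above). By library totals alone the median of the members was -0.46, and 33 fell and 8 rose, against 3.11% and 23.6% of all transcripts. On the TMM scale the median of the members was -0.95 without T2 replicate 1 and -1.21 without T2 replicate 2. In these 2 fits far fewer calls were made, among the members and over all transcripts. The share called in either direction was then not larger among the members, while the share called lower still was. With 1 T2 library left, the spread within groups came from the controls alone.

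With T3, 48 of 200 members were called against 13.6% of all transcripts tested, and 46 fell and 2 rose. The background was 5.05% of all 11556 transcripts called lower and 8.55% called higher, against 23% and 1% of the members. Their median log2 fold change was -0.85, with quartiles of -1.31 and -0.33, against -0.02 over all transcripts. Both T3 libraries lay below both controls for 133 members and above both for 11 after TMM scaling, together 72% against a background of 63.6% (30.1% below and 33.5% above). By library totals alone the median was -0.28, and 13 fell and 5 rose, against 1.74% and 19% of all transcripts. On the TMM scale the median of the members was -0.83 without T3 replicate 1 and -0.88 without T3 replicate 2. It was -0.77 without control 1 and -0.76 without control 2. Fewer calls were made without either T3 replicate and more without either control, over all transcripts as well as among the members. Without T3 replicate 1 the share called in either direction was not larger among the members than over all transcripts. Without T3 replicate 2 it was slightly larger. The T2 and T3 comparisons share their controls.

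**Figure D2:**
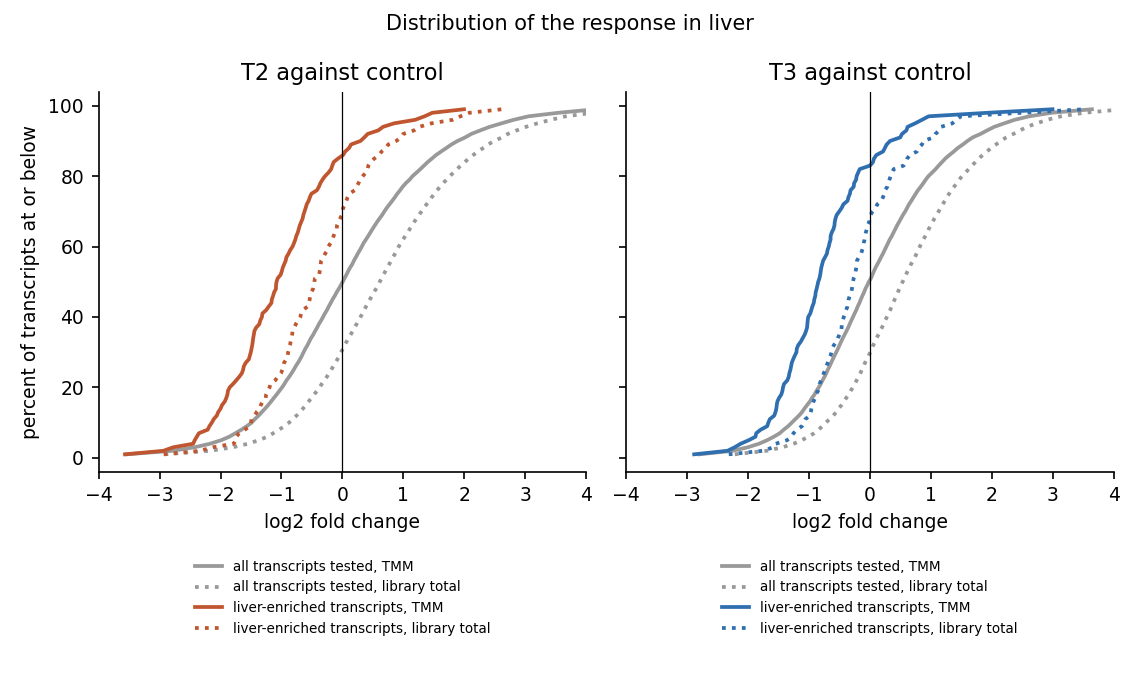
Cumulative curves give the percent of transcripts (vertical axis) at or below a log2 fold change (horizontal axis) for T2 and T3 against control in liver, in colour for the 200 liver-enriched transcripts and in grey for all transcripts tested, with solid lines for TMM and dotted lines for scaling by the library total. The coloured curves lie left of the grey ones under either scaling, with medians of -1.08 and -0.85 under TMM and -0.46 and -0.28 by library total.

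Called falls occurred in every range of abundance, against a background of 8.85% of all transcripts called lower with T2 and 5.05% with T3. Of the 10 most abundant members 3 fell with T2 and 2 with T3, and of the 40 at ranks 11 to 50 there were 18 and 13. Of the 50 at ranks 51 to 100 the counts were 17 and 5, and of the 100 at ranks 101 to 200 they were 35 and 26. The most abundant member, FETUB, was at 28353 and 28875 CPM in the controls, 26945 and 28556 CPM after T2 and 19492 and 24542 CPM after T3. In plain CPM 1 T2 library lay below both controls and the other between them. After TMM scaling both T2 libraries lay below both controls, and the log2 fold change was -0.67 (95% interval -1.38 to 0.05, adjusted p = 0.149). With T3 both libraries were lower than both controls in plain CPM, at a log2 fold change of -0.95 (95% interval -1.56 to -0.35, adjusted p = 0.0555). Neither was called. ENSONIT00000009727 was at 17397 and 20820.1 CPM in the controls, 16750.2 and 21641 CPM after T2 and 13628 and 15609 CPM after T3, with log2 fold changes of -0.60 (adjusted p = 0.217) for T2 and -0.95 (adjusted p = 0.04996) for T3, so that it fell with T3 just past the threshold. ENSONIT00000001503 was at 10573 and 15194 CPM in the controls, 11312 and 14127 CPM after T2 and 12541 and 11435 CPM after T3, and its groups overlapped in plain CPM.

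Transcripts of fibrinogen and the clotting cascade fell with both hormones. All 9 members of this list were called lower with T2 and all 9 with T3, with medians of -1.48 and -1.28 on the log2 scale. Fibrinogen is the plasma protein that thrombin turns into fibrin, and its chains are encoded by FGA, FGB and FGG. FGB (ENSONIT00000017746) was at 15156 and 15425 CPM in the controls, 8587 and 8646 CPM after T2 and 9986 and 11189 CPM after T3. The controls lay close together and above all 4 hormone-treated livers, and the log2 fold change was -1.45 (95% interval -2.15 to -0.75, adjusted p = 0.0252) with T2 and -1.10 (95% interval -1.68 to -0.52, adjusted p = 0.0377) with T3. FGG was at 7298 and 8302 CPM in the controls, 4051 and 4528 CPM after T2 and 4796 and 6033 CPM after T3, with log2 fold changes of -1.48 and -1.10. Of the 2 FGA transcripts, ENSONIT00000017742 was at 10365 and 8756 CPM in the controls, 3919.8 and 4085 CPM after T2 and 5415 and 6225 CPM after T3. For it the log2 fold change was -1.89 (95% interval -2.65 to -1.12, adjusted p = 0.0187) with T2 and -1.30 (95% interval -1.95 to -0.65, adjusted p = 0.034) with T3. The other FGA transcript, ENSONIT00000017743, fell by 2.04 and 1.54 on the log2 scale, but reads of near-identical transcripts may be split between them by the quantification.

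Factors F7, F9 and F10, which are vitamin K-dependent serine proteases of the cascade, were in the lower range of abundance. F10 was at 669 and 484 CPM in the controls, 184 and 260.4 CPM after T2 and 306 and 335 CPM after T3, with log2 fold changes of -2.00 (adjusted p = 0.0248) and -1.43 (adjusted p = 0.0368). Neither hormone group overlapped with the controls. F9 and F7 had log2 fold changes of -1.36 and -1.43 with T2 and -1.20 and -1.28 with T3. PROC, the precursor of the anticoagulant protein C, was at 929 and 1063 CPM in the controls, 559 and 432 CPM after T2 and 460.2 and 487 CPM after T3, and its log2 fold change was -1.64 with T2 and -1.64 with T3. PROC was thus lower together with the procoagulant members, in a list whose symbols came mostly from transcripts already called lowered. LPA, named for apolipoprotein(a), a relative of plasminogen, was at 4939.7 and 5702 CPM in the controls, 2842 and 3077 CPM after T2 and 3759 and 3558 CPM after T3, with log2 fold changes of -1.46 and -1.11. Without either control all 9 were again called lower with each hormone, but without T2 replicate 1 or 2 the T2 calls numbered 0 and 1 (medians -1.37 and -1.61), and without either T3 replicate none of the 9 was called with T3 (medians -1.22 and -1.32). By library totals alone 7 were called lower with T2 and 2 with T3, with medians of -0.86 and -0.69.

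Complement is a set of plasma proteins that mark microbes and open pores in their membranes. All 11 members of its list fell with T2 and 7 fell with T3, with medians of -1.53 and -1.20. C3, on whose cleavage all complement pathways converge, had 2 transcripts. ENSONIT00000020689 was at 433 and 668 CPM in the controls, 207 and 203 CPM after T2 and 375 and 419.6 CPM after T3. It fell with T2, with a log2 fold change of -2.04 (95% interval -2.77 to -1.30, adjusted p = 0.0152), and its value with T3 was -1.03 (95% interval -1.70 to -0.36, adjusted p = 0.0592). ENSONIT00000017288 was at 1189 and 1073 CPM in the controls, 788 and 626 CPM after T2 and 761 and 505 CPM after T3, and fell with both, at -1.32 (adjusted p = 0.0302) and -1.41 (adjusted p = 0.0413). C5, which starts the membrane attack complex, was at 2099 and 2456 CPM in the controls, 899 and 880.5 CPM after T2 and 1499 and 1190.5 CPM after T3, with all 4 hormone libraries below both controls. The fold was -1.98 (adjusted p = 0.0139) on the log2 scale with T2 and -1.32 (adjusted p = 0.0316) with T3.

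The later parts of the membrane pore, C8B, C8G and C9, had log2 fold changes of -1.47, -1.50 and -1.61 with T2. With T3 the values were -0.92 (adjusted p = 0.0943), -1.20 and -1.26, and C8B was not called. C9, the subunit that forms most of the pore, was the most abundant complement member at 3761 and 3612 CPM in the controls, 1717 and 1993 CPM after T2 and 2526 and 2065 CPM after T3. CFP (properdin, which stabilises the alternative pathway enzyme) fell the most with T2, with 506 and 404 CPM in the controls, 132 and 124 CPM after T2 and 249 and 215 CPM after T3. CFP had a log2 fold change of -2.47 (95% interval -3.23 to -1.71, adjusted p = 0.0119) with T2 and -1.55 (95% interval -2.26 to -0.84, adjusted p = 0.0286) with T3. C2, a protease of the classical pathway, fell with both, at -1.47 and -1.06, as did VTN (vitronectin, an inhibitor of the pore), at -1.34 and -1.03. CFI, a protease that inactivates C3b, fell with T2 at -1.53 (adjusted p = 0.0248), with -1.01 (adjusted p = 0.0604) for T3. By library totals alone 4 complement members were called lower with T2. With T3 no complement member passed on that scale, at a median of -0.63, and the smallest adjusted p was that of CFP (0.0516). Leaving out T2 replicate 1 or 2 left 0 and 1 of the 11 called with T2 (medians -1.53 and -1.73), and leaving out either T3 replicate left none called with T3 (medians -1.33 and -1.09).

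Of 9 other plasma proteins, 8 fell with T2 and 5 with T3, with medians of -1.49 and -1.31. HPX (hemopexin, which binds free heme) was at 9361 and 16402 CPM in the controls, 6692 and 8410.1 CPM after T2 and 10505 and 10515 CPM after T3. With T2 both libraries lay below both controls, at -1.36 (adjusted p = 0.0497), but the call was near the threshold, and without control 2 it was -0.995 (adjusted p = 0.0905). With T3 the libraries lay between the controls in plain CPM and below both after TMM scaling, at -0.84 (adjusted p = 0.11). LECT2, a liver-derived chemotactic protein, was at 5993 and 6228 CPM in the controls, 3018 and 3513 CPM after T2 and 6646 and 3829.8 CPM after T3, and fell with T2 (-1.52, adjusted p = 0.0249). In plain CPM the T3 libraries differed from each other and 1 lay above both controls. After TMM scaling both lay below both controls, with a log2 fold change of -0.79 (adjusted p = 0.165).

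FN1 (fibronectin, a plasma and matrix glycoprotein) was at 5414 and 7646 CPM in the controls, 4076 and 3998 CPM after T2 and 3619 and 3957 CPM after T3, and fell with both, at -1.31 and -1.35. C6ORF58, known in zebrafish as a secreted liver protein, was at 6022 and 5515 CPM in the controls, 2751 and 2325 CPM after T2 and 3198 and 3734 CPM after T3, with log2 fold changes of -1.82 and -1.31. MST1 (macrophage stimulating protein, a kringle-containing growth factor) fell with both, at -1.86 and -1.54. All hormone-treated livers were below both controls for these 3 transcripts. SPP2, a phosphoprotein of the cystatin superfamily, was at 652 and 1384 CPM in the controls, 608 and 544 CPM after T2 and 496 and 533 CPM after T3. It was called with both hormones, at -1.42 (adjusted p = 0.0487) and -1.53 (adjusted p = 0.0459), but the controls were over 2-fold apart, and without control 2 the T2 value was -0.88 (adjusted p = 0.0659). APOH, a phospholipid-binding plasma protein, had 2 transcripts among the members. A further APOH transcript, ENSONIT00000008168, was not a member, at 94.7 CPM in control 1 and near 0 in every other liver. Whether reads were split between the APOH transcripts was not tested. ENSONIT00000008169 fell with both, at -1.49 and -1.79, although the T2 value without control 1 was -1.07 (adjusted p = 0.0613). ENSONIT00000008167 fell with T2 at -1.62, with -1.21 (adjusted p = 0.0609) for T3. By library totals alone 4 of the 9 were called lower with T2 and 2 with T3. Without T2 replicate 1 or 2 the medians were -1.34 and -1.64 with T2, and the calls were lost. Without T3 replicate 1 or 2 they were -1.29 and -1.38 with T3, again with the calls lost.

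**Figure D3:**
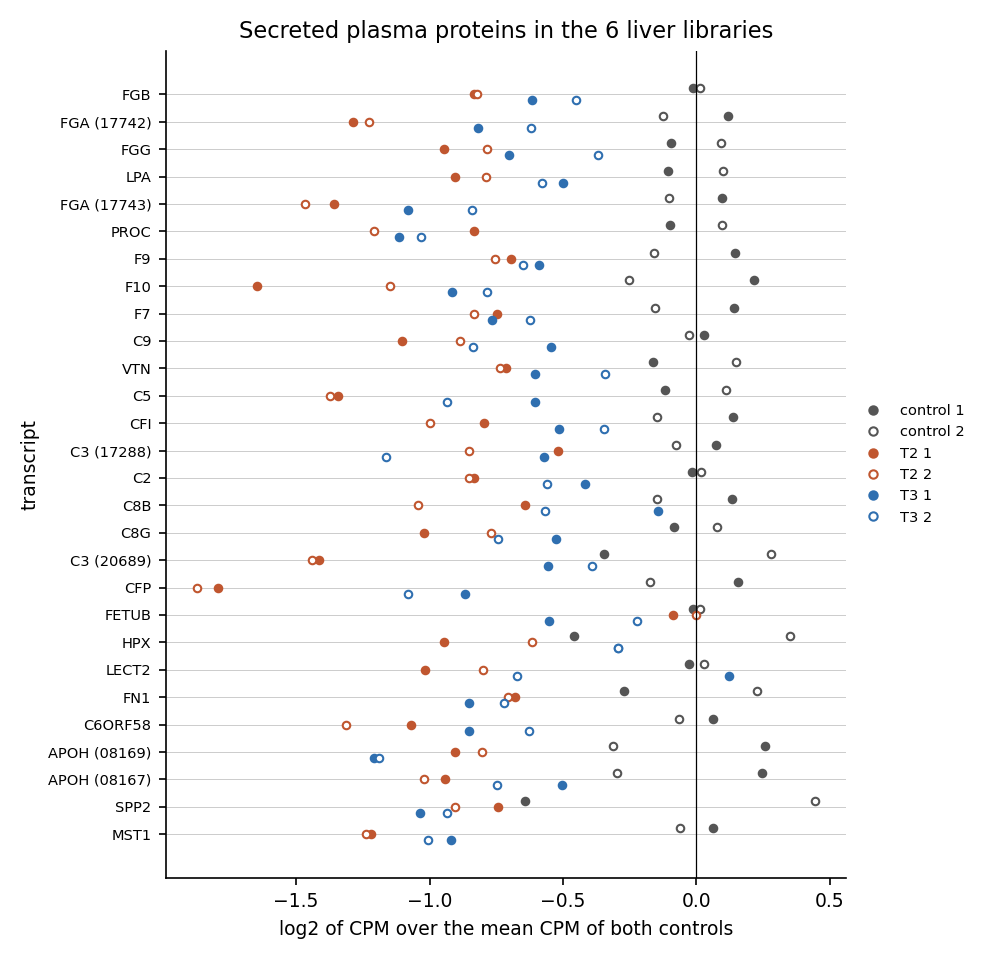
Each row is a transcript of fibrinogen and coagulation (from FGB to F7), complement (from C9 to CFP) or other plasma proteins (from FETUB to MST1), and each point is a liver library, placed by the log2 of its CPM over the mean CPM of both controls (horizontal axis), with filled points for replicate 1 and open points for replicate 2. Transcripts with several copies carry the last 5 digits of their identifier. The T2 and T3 points lie left of both controls in all 9 coagulation rows, while FETUB with T2 (26945 and 28556 CPM) lies close to the controls.

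Enzymes of amino acid breakdown held some of the deepest falls. In this list 5 of 6 members fell with T2 and 5 of 6 with T3, with medians of -2.00 and -1.66. AGXT, which detoxifies glyoxylate with alanine, was at 470.3 and 727 CPM in the controls, 111 and 130.2 CPM after T2 and 132 and 231 CPM after T3. AGXT had a log2 fold change of -2.91 (95% interval -3.73 to -2.10, adjusted p = 0.0108) with T2 and -2.29 (95% interval -3.18 to -1.39, adjusted p = 0.0231) with T3. BHMT, which remethylates homocysteine from betaine, was at 1081 and 2221 CPM in the controls, 338 and 624 CPM after T2 and 295 and 267 CPM after T3. The controls were over 2-fold apart, and all 4 hormone livers lay below them. The BHMT log2 fold change was -2.35 (95% interval -3.58 to -1.12, adjusted p = 0.0297) with T2 and -3.10 (95% interval -4.02 to -2.17, adjusted p = 0.0149) with T3, and the latter was the largest fall of any called member with T3. Without control 2 the T2 value was -1.84 (adjusted p = 0.0608).

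TDO2, the first enzyme of tryptophan breakdown, was at 527 and 1011 CPM in the controls, 312 and 236 CPM after T2 and 272 and 438 CPM after T3, with log2 fold changes of -2.10 (adjusted p = 0.0203) and -1.67 (adjusted p = 0.0431). All 4 hormone livers lay below both controls, and TDO2 fell with both hormones. UPP2, a uridine phosphorylase placed in this list, was called with each hormone, at -1.90 (adjusted p = 0.0495) and -1.54 (adjusted p = 0.0457), but lost both calls without control 2, at -1.53 (adjusted p = 0.12) and -1.16 (adjusted p = 0.0585), and the T2 call without control 1, at -2.19 (adjusted p = 0.0641). AGXT2, a mitochondrial relative of AGXT, was at 913 and 1878 CPM in the controls, 987 and 1030.3 CPM after T2 and 719 and 887 CPM after T3, and passed the test with neither hormone, at -1.06 (adjusted p = 0.0923) and -1.34 (adjusted p = 0.0591). Scaled by library totals alone, 3 of the 6 were called lower with each hormone. Without T2 replicate 1 or 2 the medians were -2.05 and -1.90 with T2, and fewer were called. Without T3 replicate 1 or 2 they were -1.45 and -1.95 with T3, again with fewer calls.

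In the carbohydrate metabolism list, where the alcohol dehydrogenases ADH6 and ADH1A were also placed, 3 of 4 members fell with T2 and 2 with T3. Scaled by library totals alone, 1 of 4 was called lower with T2 and none with T3, where the smallest adjusted p was 0.104. Without T2 replicate 1 or 2 the medians were -1.25 and -1.54 with T2, and the calls were lost. Without T3 replicate 1 or 2 they were -1.13 and -1.95 with T3, again with the calls lost. G6PC, the catalytic subunit of glucose-6-phosphatase that lets the liver release glucose, was at 835 and 1529 CPM in the controls, 573 and 385 CPM after T2 and 477 and 792 CPM after T3. It fell with T2 (-1.92, 95% interval -2.81 to -1.03, adjusted p = 0.0237), and its T3 value was -1.45 (95% interval -2.37 to -0.53, adjusted p = 0.0553). UGP2, which makes UDP-glucose for glycogen, was at 739.6 and 1191 CPM in the controls, 361 and 489.8 CPM after T2 and 473 and 657 CPM after T3, and fell with both, at -1.77 and -1.33. The alcohol dehydrogenase ADH6 was at 1169.8 and 1250.4 CPM in the controls, 889 and 863 CPM after T2 and 417 and 799 CPM after T3, and fell with both, at -1.09 and -1.57, although the T2 value without control 1 was -1.05 (adjusted p = 0.0534). Its relative ADH1A was at 506 and 591 CPM in the controls, 353 and 551 CPM after T2 and 189.7 and 402 CPM after T3, and was called with neither, at -0.88 (adjusted p = 0.122) and -1.47 (adjusted p = 0.0583).

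CIDEB, which enlarges lipid droplets and helps to load very low density lipoprotein, was at 693 and 600.1 CPM in the controls, 177 and 119.6 CPM after T2 and 163 and 222 CPM after T3. It fell with both hormones, at -2.77 (95% interval -3.56 to -1.98, adjusted p = 0.0109) and -2.33 (95% interval -3.05 to -1.60, adjusted p = 0.016), and all hormone livers were below both controls. CYP8B1, the sterol hydroxylase that sets the ratio of cholic acid among bile acids, was at 627 and 1596 CPM in the controls, 696 and 533 CPM after T2 and 853 and 1428 CPM after T3. The controls were over 2-fold apart and it was called with neither hormone, at -1.45 (adjusted p = 0.0659) and -0.51 (adjusted p = 0.485).

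Among 6 members with a symbol but in no list, 4 fell with T2 and 2 with T3. UCP1, a mitochondrial proton carrier, was at 508 and 730.3 CPM in the controls, 86.7 and 78.5 CPM after T2 and 115 and 134 CPM after T3. Its log2 fold change was -3.52 (95% interval -4.26 to -2.78, adjusted p = 0.0101) with T2 and -2.88 (95% interval -3.56 to -2.19, adjusted p = 0.0129) with T3, among the deepest falls for both hormones. GAPDH, a glycolytic enzyme with more than one copy in fish, was at 11869 and 8602 CPM in the controls, 5713 and 7029 CPM after T2 and 5017 and 4638 CPM after T3 for this liver-enriched transcript. It fell with T3 (-1.67, adjusted p = 0.0274), while its T2 value was -1.31 (adjusted p = 0.052). DIABLO, a mitochondrial protein that promotes apoptosis, was at 270.5 and 716 CPM in the controls, 191 and 155 CPM after T2 and 287 and 483 CPM after T3, and fell with T2 (-2.11, adjusted p = 0.0317), with -0.90 (adjusted p = 0.24) for T3. QSOX1, a sulfhydryl oxidase of the secretory pathway, and SSC5D, a scavenger receptor, fell with T2 at -1.40 and -1.35 (the latter -1.11, adjusted p = 0.0511, without control 2), and had -0.86 and -0.80 with T3, not called. CPA3, a carboxypeptidase, was called with neither, at -1.66 and -1.13.

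Digestive enzyme transcripts, markers of exocrine pancreas, were among the most abundant of the 200 and stood highest in control 1. All 12 had negative log2 fold changes with both hormones, and 5 of 12 were called lower with T2 and 1 of 12 with T3, with medians of -1.90 and -1.48. PRSS2 (trypsinogen) was at 25952 and 11068 CPM in the controls, 7503 and 7935 CPM after T2 and 11128 and 9738 CPM after T3. Control 1 was over 2-fold above every other liver, and control 2 lay near the T3 livers. The PRSS2 log2 fold change was -1.92 (95% interval -3.18 to -0.66, adjusted p = 0.0492) with T2, and -1.06 (adjusted p = 0.0684) without control 1. CELA1 (elastase), ENSONIT00000008648, was at 14941 and 4545 CPM in the controls, 3029 and 2909 CPM after T2 and 3982 and 4269 CPM after T3, with -2.39 (adjusted p = 0.049) for T2 and -1.15 (adjusted p = 0.0487) without control 1. The pancreatic amylase AMY2B (ENSONIT00000023345) was at 5208 and 1378 CPM in the controls, 734 and 701 CPM after T2 and 1832 and 1871 CPM after T3. Its T2 value was -2.87 (95% interval -4.59 to -1.16, adjusted p = 0.0397), and -1.48 (adjusted p = 0.0321) without control 1, whereas its T3 value was -1.45 (adjusted p = 0.174), and -0.07 without control 1.

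The other AMY2B transcript (ENSONIT00000023344), at 1606 and 978 CPM in the controls, 438 and 788 CPM after T2 and 323 and 543 CPM after T3, was the member of this list called with T3, at -2.18 (adjusted p = 0.0297), and had -1.70 (adjusted p = 0.0567) with T2. AMY1B (another amylase) and SI (sucrase-isomaltase, known from the intestine and placed in this list) were called with T2, at -2.14 and -1.72, and lost the call without control 1. The chymotrypsinogens CTRB1, CTRB2, CTRC and CTRL, the second elastase and the carboxypeptidase CPA1 were called with neither hormone. Over the whole list without control 1, 2 of 12 were called lower with T2 at a median of -0.996, and 5 of 12 with T3 at a median of -0.60. Scaled by library totals alone, 1 of 12 was called lower with each hormone. The summed level of 12 held pancreas marker transcripts, 11 of them members, was 89808 CPM in control 1 and 33736 CPM in control 2, between 24158 and 24715 CPM with T2 and between 30448 and 33661 CPM with T3. In these bulk samples fewer cells of a type and less RNA per cell cannot be told apart. The part of pancreas content in the falls of liver-made transcripts was not tested.

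Both ASTL transcripts, encoding astacin-family proteases, were high in control 1 and called with neither hormone. ENSONIT00000004940 was at 2203 and 421 CPM in the controls, 386 and 385 CPM after T2 and 727 and 532 CPM after T3, with -2.45 (adjusted p = 0.0797) and -1.68 (adjusted p = 0.188). ENSONIT00000004942 was at 487 and 176 CPM in the controls, 139 and 236 CPM after T2 and 95.2 and 175 CPM after T3, with -1.46 (adjusted p = 0.138) and -1.91 (adjusted p = 0.0833). MFAP4, a microfibril-associated protein, was at 1040.1 and 601 CPM in the controls, 514 and 622 CPM after T2 and 352 and 580.2 CPM after T3, and was called with neither, at -1.17 (adjusted p = 0.0916) and -1.42 (adjusted p = 0.0749). The collagen transcripts held as markers of connective tissue summed to between 51.6 and 153 CPM in liver.

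**Figure D4:**
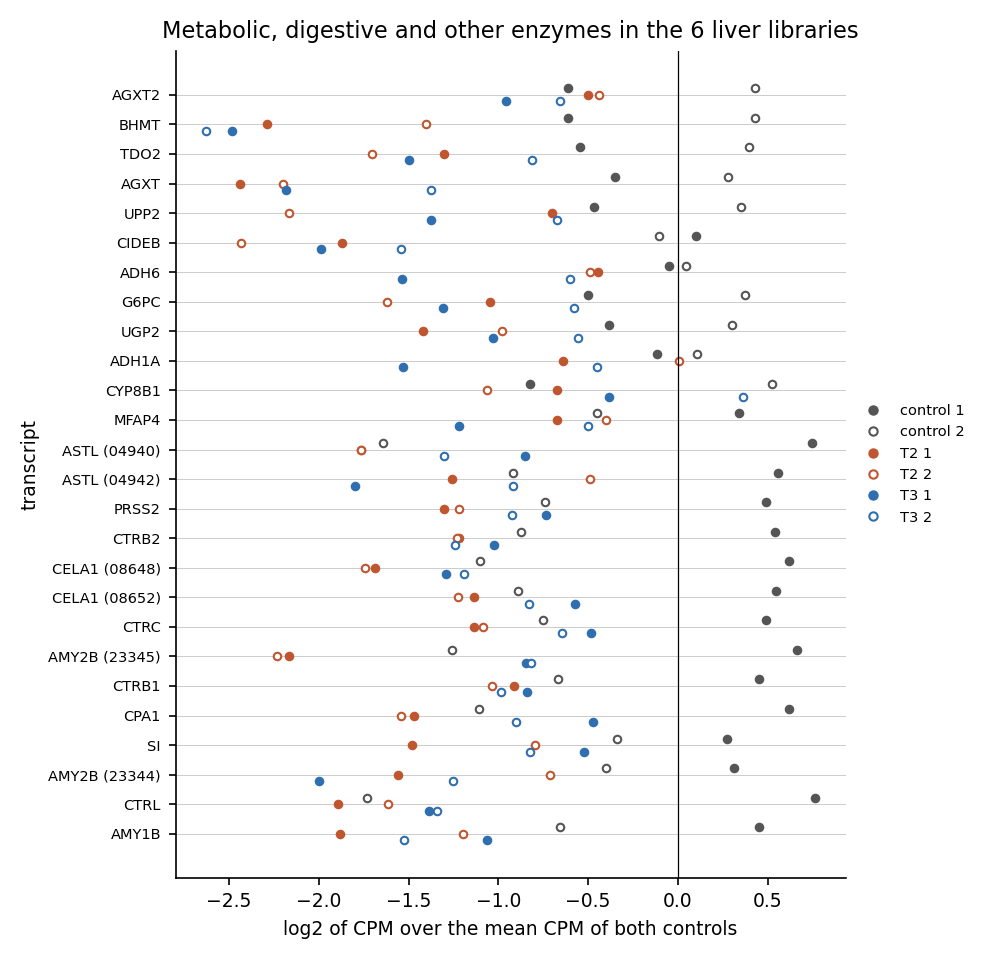
Rows run from amino acid enzymes (AGXT2 to UPP2) and CIDEB through the carbohydrate metabolism list (ADH6 to ADH1A), CYP8B1, MFAP4 and ASTL. Digestive enzymes (PRSS2 to AMY1B) follow. Each point is a liver library placed by the log2 of its CPM over the mean CPM of both controls (horizontal axis). Points are filled for replicate 1 and open for replicate 2. In the digestive enzyme rows control 1 lies alone at the right, as for PRSS2 with 25952 CPM against 11068 CPM in control 2, while for AGXT, BHMT and CIDEB the hormone points lie left of both controls.

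Of the 137 transcripts without a symbol, 27 fell and 3 rose with T2, and 14 fell and 2 rose with T3. Those that fell were 19.9% of the 136 tested with T2 and 10.2% with T3, against the 8.85% and 5.05% of all transcripts given above. The median log2 fold change was -0.71 with T2 and -0.60 with T3. With library totals as the only scaling the medians were -0.09 and -0.05, 11 were called lower and 8 higher with T2, and 2 were called lower and 5 higher with T3. Those that fell with T2 had values between -4.89 and -0.99. ENSONIT00000004675 had the largest fall with T2, from 1297 and 1133 CPM in the controls to 56.5 and 69.5 CPM, at -4.89 (95% interval -5.78 to -4.00, adjusted p = 0.0101). With T3 it was at 4909 and 1573 CPM, both above both controls in plain CPM, at 0.85 (95% interval -0.49 to 2.19, adjusted p = 0.325). ENSONIT00000008335 fell with both hormones, with 2325 and 1851 CPM in the controls, 384 and 184 CPM after T2 and 329.8 and 521 CPM after T3. Its log2 fold changes were -3.54 (adjusted p = 0.0119) and -2.88 (adjusted p = 0.0149).

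Few members rose. ENSONIT00000017398 was at 638 and 815 CPM in the controls, 4863 and 3993 CPM after T2 and 3456 and 4728 CPM after T3, so that all 4 hormone livers lay above both controls. Its log2 fold change was 1.98 (95% interval 1.30 to 2.67, adjusted p = 0.0142) with T2 and 1.93 (95% interval 1.25 to 2.60, adjusted p = 0.0187) with T3. ENSONIT00000021358 was at 24.0 and 64.2 CPM in the controls, 270.1 and 512 CPM after T2 and 665 and 346 CPM after T3, and rose with both, at 2.57 (adjusted p = 0.0329) and 2.97 (adjusted p = 0.0279), although the T2 value without control 1 was 2.10 (adjusted p = 0.0744). The third to rise with T2, ENSONIT00000008707, was at 1.096 and 9.40 CPM in the controls, 398 and 355 CPM after T2 and 793 and 8.36 CPM after T3. It was called with T2 (5.41, adjusted p = 0.0144), and the T3 livers were split, 1 high and 1 near the level of control 2.

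That transcript was 1 of 5 members that were under 20 CPM in some liver and over 200 CPM in another, a pattern singled out after the values were seen. ENSONIT00000003182 was near absent outside the T3 livers, where it was at 1584 and 17.5 CPM, and it was left out of the test of T2 against control, where both T2 libraries held 0. It was called neither with T3 against control (adjusted p = 0.0502) nor between T2 and T3 (adjusted p = 0.352). ENSONIT00000023320 was at 1918 and 11.4 CPM in the controls, 16.7 and 4.17 CPM after T2 and 533 and 111 CPM after T3. ENSONIT00000003344 was at 0.561 and 1135 CPM in the controls, 209.6 and 153 CPM after T2 and 32.7 and 106 CPM after T3. In each of them the libraries of at least 1 group lay far apart, so their place among the 200 rested on 1 or a few livers. ENSONIT00000003943 ran from 2.33 CPM in control 1 to 899 CPM in T3 replicate 2.

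**Figure D5:**
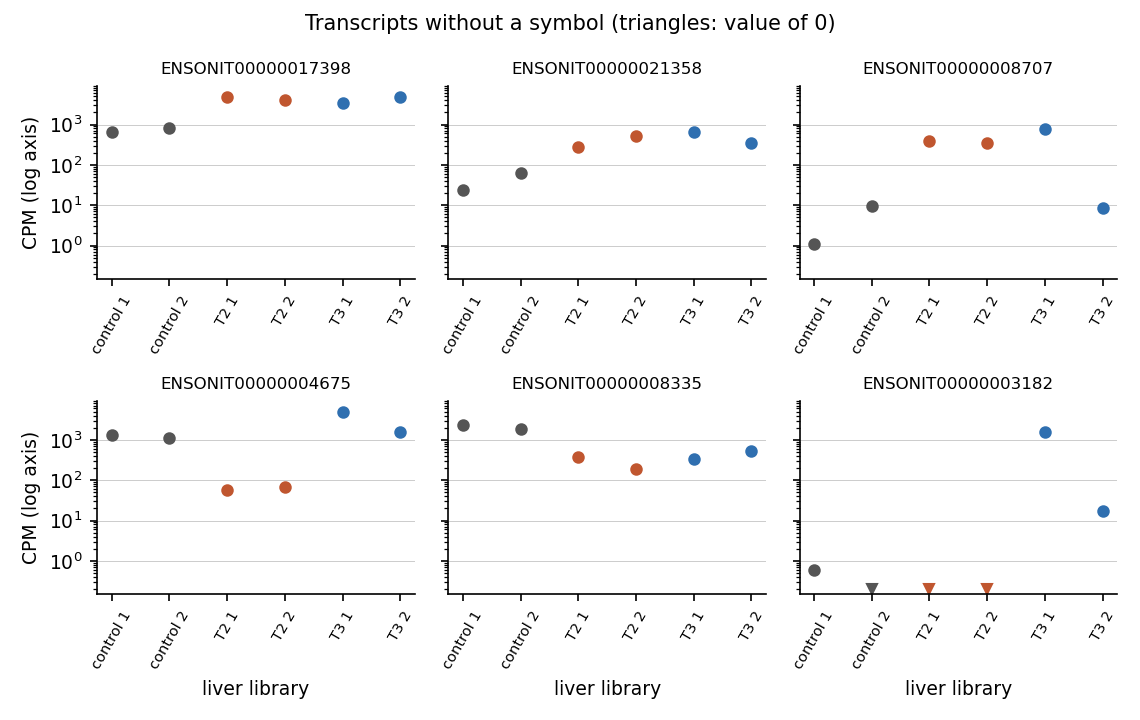
Points give the CPM (log axis) of 6 transcripts without a symbol in each liver library (horizontal axis), with triangles at the bottom for a value of 0. ENSONIT00000017398 and ENSONIT00000021358 are higher in all 4 hormone livers than in both controls, ENSONIT00000004675 is low with T2 alone, and ENSONIT00000008707 and ENSONIT00000003182 differ sharply between the T3 livers.

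Set directly against each other at the same dose and time, T2 and T3 did not differ in any member at an adjusted p under 0.05 by edgeR's quasi-likelihood test (0 of 200, against a background of 0.0874%, of which 0.0262% higher and 0.0612% lower with T2). At an unadjusted p under 0.05 there were 51 (25.5%, against 11.1% of all transcripts), of which 46 were lower with T2 and 5 higher (23% and 2.5%, against 5.32% and 5.78%). The edgeR exact test called 14 members (7%, against 2.69% of all tested). DESeq2 called 19 (9.5%), against 0.925% of 19789 transcripts. That larger set includes low-count transcripts left out of the edgeR tests, so the 2 backgrounds are not on the same footing. The median log2 difference of T2 against T3 was -0.18. After TMM scaling both T2 libraries lay below both T3 libraries for 82 members (41%, against 22.7% of all transcripts). They lay above for 23 (11.5%, against 21.8%), together 52.5% against a background of 44.5%. The smallest adjusted p was that of AMY2B (ENSONIT00000023345), at -1.43 (95% interval -1.79 to -1.07, adjusted p = 0.0702). C3 (ENSONIT00000020689) followed among the members with a symbol, at -1.02 (95% interval -1.40 to -0.63, adjusted p = 0.174), and CFP had -0.93 (95% interval -1.35 to -0.50, adjusted p = 0.247). All 3 were lower in both T2 than in both T3 livers. The other transcripts of AMY2B and C3 overlapped between T2 and T3 in plain CPM. AMY2B (ENSONIT00000023344) was at 438 and 788 CPM after T2 and 323 and 543 CPM after T3. C3 (ENSONIT00000017288) was at 788 and 626 CPM after T2 and 761 and 505 CPM after T3. Whether reads were split between the transcripts of a gene was not tested. The digestive enzymes together took 2.44% and 2.53% of the T2 livers and 3.41% and 3.08% of the T3 livers, and the part of that in the AMY2B difference was not tested.

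ENSONIT00000004675, low in both T2 livers and high in both T3 livers, had a difference of -5.75 (95% interval -7.43 to -4.07, adjusted p = 0.0973), and passed the threshold by library totals alone (adjusted p = 0.0398), where 0 members were called higher and 2 lower with T2 against 0.0612% and 0.184% of all transcripts. Where no difference was called, the intervals still bound it. The 95% interval of the log2 difference had a median half-width of 0.494, and for 132 of 200 members it lay wholly within 1 log2 unit of 0. For FETUB the difference was 0.28 (95% interval -0.16 to 0.71, adjusted p = 0.598), for FGB -0.36 (95% interval -0.72 to 0.01, adjusted p = 0.46) and for PROC -0.01 (95% interval -0.40 to 0.39, adjusted p = 0.993). BHMT, lower with T3 in both libraries, had 0.73 (95% interval -0.15 to 1.62, adjusted p = 0.511).

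In the 12 brain libraries the 200 transcripts together took between 0.0290% and 0.0593% of the effective counts. Between 134 and 182 of them were above 0 in a library, 73 were above 0 in all 12 and 1 was at 0 in all. The mean brain level was under 1 CPM for 113 and over 5 CPM for 23. LECT2 and FETUB had the highest means, at 16.3 and 16.2 CPM, and the highest single value was 37.6 CPM, for FETUB in cerebellum control 2. Many of these values stood for a few counts or none, and the hormone response of the members was not tested in brain.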

How the data were processed

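RNA-seq libraries of liver, cerebellum and thalamus-pituitary (2 per group, 18 in all) were analysed. Per the labels and the study's methods, the authors mapped paired reads with Bowtie 1.1.2 to the Orenil1.0 coding sequences and quantified them with eXpress. They deposited expected counts for each transcript and library as effective counts, which adjust the estimated count for the part of a transcript that can yield fragments, with no scaling between libraries. The deposited edgeR tables of each hormone against control (fold changes and p-values) were not used.

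The members and the function lists were chosen with earlier results of these data known. Members with a symbol in a function list are named, as are the 3 most abundant, the transcripts at the selection limits, and for each hormone the 5 largest rises and falls among called members whose groups did not overlap, with at most 2 unnamed ones each way. A few others were named after their values were seen. The list counts include 3 members that are not reported singly here.

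Effective counts were rounded and tested in the 4 libraries of each comparison with R 4.3.3 and edgeR 4.0.16 (filterByExpr, TMM, quasi-likelihood test, Benjamini-Hochberg adjustment). The test was checked on simulated counts. DESeq2 1.42.0, edgeR's exact test, other scalings and filters, other selection rules and leaving out each library were tried. Counts omitting the digestive enzymes were added after the data were seen. With 1 count worth between 0.152 and 0.478 CPM in liver, counting error was small for most members, and the spread between 2 libraries limited the tests. It was not small for members near absent from a liver, such as ENSONIT00000008707 at 1.096 CPM in control 1. P-values measure only the spread between these libraries.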

Additional observations from a re-analysis of the deposited data

How the results depend on the processing

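With 2 libraries per group the number of called members moved with the processing. The counts below for the 100 most abundant transcripts are out of 100 members. There the share called changed little. It was 39 of 100 with T2, against 76 of 199 (38.2%), and 21 of 100 with T3, against 48 of 200 (24%). For T2 (76 members) it was 41 by library totals alone, 50 with a replicate block and 39 for the 100 most abundant transcripts, and leaving out each replicate gave between 10 and 98, where the lone library of a group is taken to vary like the others. For T3 (48 members) it was 92 by DESeq2, 18 by library totals alone, 73 with all 6 livers in 1 fit, 23 with a replicate block and 21 for the 100 most abundant, and leaving out each replicate gave between 2 and 111. For T2 against T3 (0 members) it was 14 by the exact test, 19 by DESeq2, 2 by library totals alone, 1 with all 6 livers, 2 with a replicate block and 2 with thinned counts, and 0 to 2 without a replicate. Over all transcripts tested, 2290 of 10905 were called for T2, 2915 by library totals alone and 1525 with a replicate block. For T3 the matching counts were 1572 of 11556, 2392 and 837, with 2140 of 12029 with all 6 livers. For T2 against T3 the matching counts were 10 of 11437, 28 and 24. For T2 the exact test called 3312 of 10905, of which 99 were members. With all 6 livers 3309 of 12029 were called for T2 (103 members), and with thinned counts 2284 of 8504 (97 members). DESeq2 called 1910 of 19398 for T2 (103 members) and 1496 of 19858 for T3. Those larger totals include low-count transcripts that the edgeR tests left out. Calls over all transcripts also moved when a replicate was left out. Same-numbered libraries showed little shared deviation (correlations of -0.0509, 0.0138 and -0.0671 over 12029 transcripts, and -0.149, 0.153 and 0.0202 over the 200 members). With 2 libraries per group these correlations cannot settle whether the replicate numbers pair the libraries. Why the counts moved was not tested. Without the 12 listed digestive enzymes 71, 47 and 0 of 188 were called.

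The drop in share (10.8 points for T2, 9.29 for T3) was 9.31 and 8.18 points for the 100 most abundant. It was 11.7 and 10.3 points with members chosen on control livers only, and 8.81 and 6.33 without the 10 most abundant. Without the 12 listed digestive enzymes it was 6.995 and 6.29 points. That setting kept all members without a symbol. In 5 of those, control 1 was also over 2-fold above every other liver. The brain share was 0.0514% and 0.0299% at ratios of 50 and 200. Over all members, 170 had a negative fold with T2 on the TMM scale and 138 by library totals alone. With T3 these counts were 166 and 137. Among the named transcripts, those that changed sign by library totals alone were ENSONIT00000009727 with T2 (0.0072) and CYP8B1 with T3 (0.037). Leaving out each replicate gave -0.98 to 0.21 for CYP8B1, -2.45 to 0.095 for ASTL (ENSONIT00000004940) and -0.22 to 1.47 for ENSONIT00000004675, all with T3. None of these values was called except that of ASTL without control 2 (-2.45, adjusted p = 0.0117). Of the other values of named transcripts under the alternatives, 1449 kept direction and side of the threshold, 236 lost the call and 158 gained it.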
